A study of Mus musculus with 15 samples.

Results

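The 10 genes described here encode enzymes and a helper protein that make or inactivate prostaglandins, thromboxane and leukotrienes, the lipid mediators formed from arachidonic acid. They were Ptgs1, Ptgs2, Ptges, Hpgds, Tbxas1, Hpgd, Alox5, Alox5ap, Ltc4s and Alox15, and each was taken as the row of the expression table that carries its symbol, 10 of 55335 genes. Hpgd was selected on its higher level in the miRNA groups of these same samples, and the others were listed by function with earlier results of these samples known. The differences of the 10 genes from control are therefore a description without a test.

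In macrophages, phospholipase A2 frees arachidonic acid from membranes. Cyclooxygenases turn it into prostaglandin H2, from which terminal synthases make prostaglandin E2, prostaglandin D2 or thromboxane A2, and Hpgd, 15-hydroxyprostaglandin dehydrogenase, starts the inactivation of prostaglandins by oxidising their 15-hydroxyl group. In the other branch 5-lipoxygenase (Alox5), helped by the membrane protein FLAP (Alox5ap), makes leukotriene A4, which Lta4h turns into leukotriene B4 and Ltc4s into leukotriene C4.

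The RNA came from TAMs, tumor-associated macrophages that carry CD11b and F4/80, sorted by FACS from tumors in the liver of C57BL/6 mice. The tumors had grown for 3 weeks from Hepa1-6, a hepatoma cell line of the mouse, whose cells carried a luciferase lentivirus in this model. The 3 groups of 5 samples were labelled as control HCC and as HCC overexpressing miR-144 or miR-451a, and the lentiviral overexpression was in the hepatoma cells, not in the macrophages. The labels call every sample untreated and give no age of the mice, and they do not say that each sample is a separate mouse. The study's text gives a smaller number of replicates for this sequencing than the samples labelled here, so p-values measure only the spread between these samples.

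The table holds FPKM, fragments scaled to the length of the transcript and to the mapped fragments of the sample. The steps between low values implied a depth of about 15600000 to 30500000 fragments per sample, an approximate figure, since only 39.1% to 56.1% of low values lay on a step (10% by chance, within 0.05 of a step). The macrophage markers Csf1r, Adgre1, Cd68, Lyz2, Fcgr1 and Mertk, and both rows of Itgam, were present in every sample. The samples numbered 3 and 4 stood apart from those numbered 1, 2 and 5 in all 3 groups, a split noticed in the values, since the labels name no batch. Of 11419 genes whose mean over all samples reached 1 FPKM, 380 (3.33%) had samples 3 and 4 as the lowest of their group in all 3 groups, and 140 (1.23%) had them as the highest. Hpgd, Alox5 and Alox5ap had them lowest throughout, so their values are also given without these samples.

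The mature sequences of the overexpressed miRNAs show what the hepatoma cells received, and are those of RefSeq (GRCm38.p6), with the seed, bases 2 to 8, in capitals. Both miRNAs come from a cluster on chromosome 11, where miR-144-5p lies at 78073010 to 78073032, miR-144-3p at 78073047 to 78073066 and miR-451a at 78073186 to 78073207, all on the plus strand. The labels do not say which arm of miR-144 was meant.
miR-144-5p: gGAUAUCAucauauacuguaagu
miR-144-3p: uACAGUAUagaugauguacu
miR-451a: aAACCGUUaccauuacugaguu
The 3 seeds differ from each other. Exact complements of bases 2 to 8 were searched in 1 annotated 3′ UTR per gene (GENCODE M21), and Ptgs2, encoding the inducible cyclooxygenase, was the only one of the 10 genes with a match. Ltc4s had no 3′ UTR in the transcript used. Of 9960 genes, 5.55% held a match for miR-144-5p, 13.6% for miR-144-3p and 1.80% for miR-451a. The matches in Ptgs2 begin at bases 235 and 2057 of its 2445-base 3′ UTR. They are shown with the matched letters in capitals because no other member had a match. The mean of Ptgs2 was highest with miR-144 (0.613 FPKM, against 0.458 in control and 0.480 with miR-451a). The miRNAs were overexpressed in the hepatoma cells, not in the macrophages measured, and an effect of the matches was not tested.
Ptgs2, match to miR-144-5p: atgaatttTGATATCtttatact
Ptgs2, match to miR-144-3p: gacaaataATACTGTtatttata

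The promoters of 8 of the 10 genes (all but Alox5ap and Alox15, which were not in the RefSeq table used) shared a feature that the choice of genes did not use. From 250 bases before to 50 bases after the RefSeq start, each of the 8 held the core GAGGAA of the site bound by PU.1, the myeloid ETS factor, on either strand (TTCCTC on the other), against 28.3% of all 32851 promoters of that length. The matches are shown 5′ to 3′ on the strand of the gene (GRCm38.p6), with the core in capitals and up to 12 bases on each side, because they are what the 8 promoters had in common.
Ptgs1 (chr2:36230390-36230419): aaggctggagcaGAGGAAgttggcggtcag
Ptgs2 (chr1:150099781-150099801): tggGAGGAAaccggagacccc
Hpgds (chr6:65144762-65144791): ggcttttaggtgGAGGAAgtggcctctggc
Ptges (chr2:30903429-30903458): gggacacctccaTTCCTCtgcttcccaccc
Tbxas1 (chr6:38918955-38918984): ccctctgcttccTTCCTCtttataaagaaa
Hpgd (chr8:56294310-56294339): tcctttcagcttTTCCTCtcttagctcact
Alox5 (chr6:116461297-116461326): agagatggggcaGAGGAAcaagggcttcag
Ltc4s (chr11:50238499-50238528): gcgccgaggctcTTCCTCtcctgggccagc
Counted from the start, the core began at -24 in Ptgs1, -49 in Hpgds, -19 in Tbxas1, -136 in Alox5, -149 in Ptges, -230 in Hpgd, -247 in Ptgs2 and 17 in Ltc4s. The letters occurred in genes that were higher, lower and similar in the miRNA groups, and a match of letters is no sign of binding. The count rests on the RefSeq starts. GENCODE M21 begins Hpgd at 56294585, Hpgds at 65144908, Ltc4s at 50238616, Ptges at 30929863 and Tbxas1 at 38875404, which are other positions. Windows from those starts were not searched. The share of 28.3% is over all promoters, not only those of genes expressed in these cells.

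Other motifs were less shared. The STAT6 letters TTCNNNNGAA occurred in the promoters of Ptges and Tbxas1 (2 of 8, against 6.95% of all promoters), the AP-1 letters TGANTCA in Tbxas1 (1 of 8, against 7.81%), and the TATA box TATAAA in Tbxas1 and Hpgd (2 of 8, against 13.6%), while no kappa-B match occurred (8.46% of all promoters). In Tbxas1 the TATA box matched on both strands, with overlapping letters, next to the PU.1 core. The Tbxas1 promoter used lies inside the gene as GENCODE M21 places it (38875404 to 39084585), not at its start. In Hpgd the TATA box began at base 5 after the RefSeq start but 29 bases before the start in GENCODE M21, and is shown in capitals with 12 bases on each side, since the annotations place the start of this gene differently.
Hpgd, TATA box (chr8:56294544-56294573): cacggagtgggcTATAAAagctgctgcggc
The 250 bases before the RefSeq start of Hpgd (chr8:56294302-56294551, plus strand), with the PU.1 core in capitals, are given because Hpgd differed most between the groups.
Hpgd, 250 bases before the start: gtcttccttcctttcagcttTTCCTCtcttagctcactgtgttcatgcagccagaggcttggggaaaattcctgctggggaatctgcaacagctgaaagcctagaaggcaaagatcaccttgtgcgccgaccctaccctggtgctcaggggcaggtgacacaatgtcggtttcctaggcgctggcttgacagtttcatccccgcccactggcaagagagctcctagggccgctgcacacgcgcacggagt

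In control TAMs the order of the levels was Alox5ap, Ptgs1 and Hpgds, then Ltc4s, Hpgd and Tbxas1, then Ptges, Ptgs2, Alox5 and Alox15. Ltc4s and Hpgd overlapped in their samples, as did Hpgd and Tbxas1, whereas the other neighbours in this order did not. In the miRNA groups Hpgd came second behind Alox5ap, followed by Hpgds, Tbxas1, Ltc4s, Ptgs1, Alox5, Ptges, Ptgs2 and Alox15. There Tbxas1 overlapped with Ltc4s in both groups, and Ltc4s with Ptgs1 in the miR-144 group only. FPKM is per length, so levels of different genes can be set side by side. Of the 10 genes, 5 lay above control in every miR-144 sample, 1 lay below and 4 overlapped. With miR-451a, 5 lay above, 2 lay below and 3 overlapped. Of the 11419 genes, 37.9% lay above control and 16.0% below it in the miR-144 group, and for miR-451a the shares were 38.8% and 16.4%. As a description only, 8 members passed the filter into limma over these genes and 7 had an adjusted p under 0.05 in each comparison with control, 5 of them higher and 2 lower. Over all genes the called share was 67.2% for miR-144 (47.1% higher and 20.1% lower) and 68.3% for miR-451a (48.1% higher and 20.3% lower), and Hpgd had been chosen on this contrast while Alox5 passed the filter only through the miRNA groups, so nothing is read from the count. On the log2(FPKM + 1) scale the median gene differed from control by 0.13 for miR-144 and by 0.14 for miR-451a. With each sample centred on its median, 3512 genes were higher and 3511 lower for miR-144, where 5376 and 2292 had been without centring, and 3577 and 3636 for miR-451a, where 5490 and 2314 had been.

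**Figure D1:**
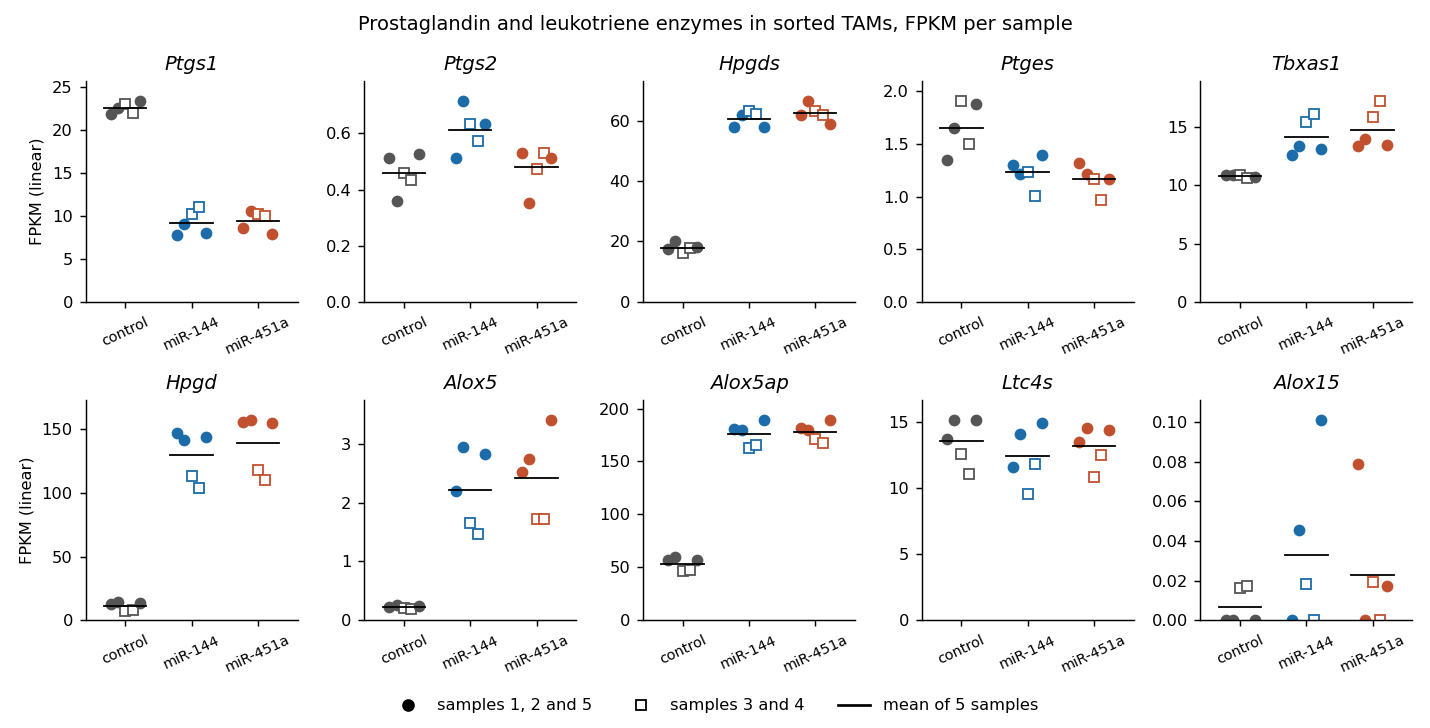
FPKM (linear axes from 0) of the 10 genes in each of the 15 samples, by group, with filled circles for samples 1, 2 and 5, open squares for samples 3 and 4 and a line at the mean of 5 samples. Hpgd, Hpgds, Alox5, Alox5ap and Tbxas1 lie above control in all miRNA samples and Ptgs1 lies below, and in Hpgd, Alox5 and Alox5ap the open squares are the lowest of each group.

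Ptgs1 (ENSMUSG00000047250, chromosome 2, 36230426 to 36252272 in GENCODE M21) encodes the constitutive cyclooxygenase COX-1. It had 21.8, 22.6, 23.1, 22.0 and 23.3 FPKM in control samples 1 to 5, 7.74, 9.07, 10.3, 11.04 and 8.04 FPKM with miR-144 and 8.62, 10.5, 10.2, 10.02 and 7.90 FPKM with miR-451a. All 10 miRNA samples were lower than every control sample, and the control samples varied least. The means were 22.6 ± 0.668, 9.23 ± 1.41 and 9.46 ± 1.14 FPKM (SD, n = 5 each). Thus the control mean was 2.44 times that of miR-144 and 2.38 times that of miR-451a, with log2(FPKM + 1) differences of -1.21 and -1.18 (SE 0.09).

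Ptgs2 (ENSMUSG00000032487, chromosome 1, 150100031 to 150108227), which encodes the inducible cyclooxygenase COX-2, was low in every sample. Its FPKM was 0.512, 0.358, 0.460, 0.433 and 0.526 in control samples, 0.512, 0.715, 0.632, 0.572 and 0.634 with miR-144 and 0.530, 0.351, 0.475, 0.530 and 0.513 with miR-451a. The 3 groups overlapped, and the highest values were in miR-144 samples. The means of 0.458 ± 0.0674, 0.613 ± 0.0759 and 0.480 ± 0.0755 FPKM (SD, n = 5 each) lay under the filter of 1 FPKM, above the floor of 3 fragments (0.0433 FPKM), which covers counting error only. Ptgs1 was above Ptgs2 in all 15 samples on the FPKM scale.

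Hpgds (ENSMUSG00000029919, chromosome 6, 65117293 to 65144908) encodes the hematopoietic prostaglandin D2 synthase. Its FPKM was 17.4, 20.02, 16.2, 17.8 and 18.0 in control samples, 57.9, 61.7, 63.0, 62.1 and 57.9 with miR-144 and 61.9, 66.4, 63.3, 61.7 and 58.7 with miR-451a. Every miRNA sample was far above the highest control sample. The means were 17.9 ± 1.37, 60.5 ± 2.46 and 62.4 ± 2.79 FPKM (SD, n = 5 each), ratios of 3.38 and 3.49 to control, and the log2(FPKM + 1) differences were 1.70 and 1.75 (SE 0.05). The other prostaglandin D2 synthase, Ptgds, was listed at 0 in all 15 samples.

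Ptges (ENSMUSG00000050737, chromosome 2), encoding the microsomal prostaglandin E synthase that works with COX-2, was near the filter. It had 1.34, 1.65, 1.91, 1.497 and 1.88 FPKM in control samples, 1.30, 1.22, 1.24, 1.003 and 1.40 FPKM with miR-144 and 1.32, 1.22, 1.17, 0.967 and 1.17 FPKM with miR-451a. The lowest control sample lay within the range of miR-144 and just above that of miR-451a. The means were 1.66 ± 0.243, 1.23 ± 0.146 and 1.17 ± 0.128 FPKM (SD, n = 5 each), with log2(FPKM + 1) differences of -0.25 and -0.29 (SE 0.07). After median centring they were -0.38 and -0.44, after quantile normalization -0.42 and -0.48, and within samples 1, 2 and 5 -0.18 and -0.23.

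Tbxas1 (ENSMUSG00000029925, chromosome 6, 38875404 to 39084585) encodes thromboxane A synthase. Its control values were within 10.6 to 10.9 FPKM, whereas those of miR-144 were 12.6, 13.3, 15.4, 16.1 and 13.1 FPKM and those of miR-451a 13.3, 14.0, 15.8, 17.2 and 13.4 FPKM. The miRNA samples were all above control, and samples 3 and 4 were the highest in both miRNA groups. The means were 10.8 ± 0.122, 14.1 ± 1.54 and 14.8 ± 1.70 FPKM (SD, n = 5 each), with log2(FPKM + 1) differences of 0.35 and 0.41 (SE 0.07). After centring each sample on its median they were 0.22 and 0.27.

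Hpgd (ENSMUSG00000031613, chromosome 8, 56294585 to 56321043) had the largest difference of the 10 genes. Its FPKM was 13.1, 14.4, 7.57, 7.87 and 13.6 in control samples 1 to 5, 147, 141, 113, 104 and 144 with miR-144 and 155, 157, 118, 109.9 and 155 with miR-451a. The lowest miRNA sample was above the highest control sample, and samples 3 and 4 were lowest in each group. The means of 11.3 ± 3.30, 129.8 ± 20.02 and 139 ± 23.0 FPKM (SD, n = 5 each) gave ratios of 11.5 and 12.3 to control, and log2(FPKM + 1) differences of 3.44 and 3.54 (SE 0.18).

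Within samples 1, 2 and 5 the ratios of Hpgd to control were 10.5 for miR-144 and 11.4 for miR-451a. Within samples 3 and 4 they were 14.0 and 14.8. Without samples 3 and 4 the log2 differences of Hpgd were 3.31 and 3.42 (SE 0.04), and with only these samples 3.65 and 3.72 (SE 0.06). The direction was thus the same within either set of sample numbers. By level among the tested genes, Hpgd stood at percentile 70.0 in control TAMs and at 97.9 and 98.1 in the miRNA groups.

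Alox5 (ENSMUSG00000025701, chromosome 6, 116410077 to 116461178) was almost absent from control TAMs. Its FPKM was 0.224, 0.264, 0.206, 0.193 and 0.251 in control samples, 2.19, 2.94, 1.66, 1.46 and 2.82 with miR-144 and 2.52, 2.74, 1.72, 1.72 and 3.41 with miR-451a. All miRNA samples were above control, and samples 3 and 4 were again lowest in each group. Alox5 passed the filter of 1 FPKM only through the miRNA groups. The means of 0.228 ± 0.0296, 2.21 ± 0.666 and 2.42 ± 0.720 FPKM (SD, n = 5 each) gave ratios of 9.72 and 10.6. The log2(FPKM + 1) differences were 1.36 and 1.45 (SE 0.15), and 2.77 and 2.90 with a pseudocount of 0.1, since a pseudocount of 1 understates the change of low genes. After rescaling to TPM they were 2.27 and 2.39. Without samples 3 and 4 they were 1.54 and 1.63 (SE 0.10).

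Alox5ap (ENSMUSG00000060063, chromosome 5, 149264767 to 149288153), encoding FLAP, was the highest of the 10 genes in every group. It had 56.9, 59.6, 46.3, 47.1 and 57.1 FPKM in control samples, 181, 179.8, 163, 165 and 189 FPKM with miR-144 and 181, 180.1, 171, 167 and 189.5 FPKM with miR-451a. No miRNA sample came near control. The means were 53.4 ± 6.22, 176 ± 11.2 and 178 ± 8.81 FPKM (SD, n = 5 each), ratios of 3.29 and 3.33, with log2(FPKM + 1) differences of 1.70 and 1.72 (SE 0.07). Without samples 3 and 4 both differences were 1.65 (SE 0.04). Within a sample Alox5ap was 235 ± 13.1 times Alox5 in control, 84.4 ± 21.5 times with miR-144 and 78.1 ± 19.6 times with miR-451a (SD, n = 5 each). The transcript of the helper protein thus exceeded that of the enzyme on the FPKM scale in all groups, and protein was not measured.

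Ltc4s (ENSMUSG00000020377, chromosome 11, 50236461 to 50238616) encodes leukotriene C4 synthase, which adds glutathione to leukotriene A4. Its FPKM was 13.7, 15.2, 12.6, 11.1 and 15.2 in control samples, 11.6, 14.1, 9.57, 11.8 and 14.9 with miR-144 and 13.5, 14.5, 10.8, 12.5 and 14.4 with miR-451a. The 3 groups overlapped, although sample 3 of each miRNA group was below every control sample. The means were 13.5 ± 1.75, 12.4 ± 2.13 and 13.1 ± 1.54 FPKM (SD, n = 5 each), with log2(FPKM + 1) differences of -0.13 and -0.04 (SE 0.11), and the second was 0.04 after rescaling to TPM. After median centring they were -0.26 and -0.18. Unlike those of Alox5 and Alox5ap, its miRNA samples lay within or near the control range.

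Alox15 (ENSMUSG00000018924, chromosome 11), the 12/15-lipoxygenase of peritoneal macrophages, was listed at 0 in 3 control, 2 miR-144 and 2 miR-451a samples. Its highest value was 0.101 FPKM in miR-144 sample 5, near the floor of 3 fragments (0.0800 FPKM). All other samples were below that floor, and no fold change is given.

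**Figure D2:**
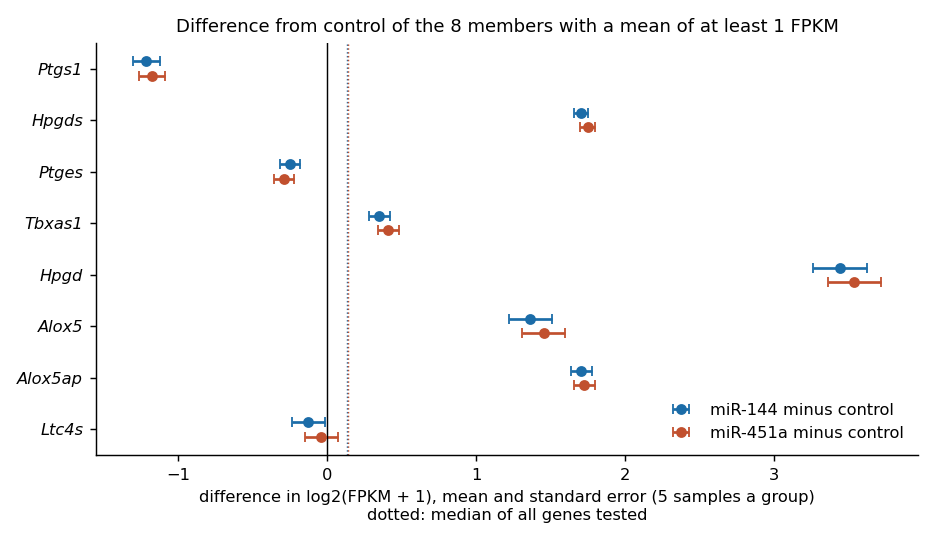
Difference from control in log2(FPKM + 1) (x axis) of the 8 genes whose mean reached 1 FPKM, as the fitted mean with its standard error for miR-144 and miR-451a, with dotted lines at the median of all 11419 genes. Hpgd lies at 3.44 and 3.54, Ptgs1 at -1.21 and -1.18, and Ltc4s near 0.

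The synthesis and inactivation branches were also compared within each sample, as ratios of FPKM. Hpgd was 0.501 ± 0.146 times Ptgs1 in control TAMs, 14.6 ± 4.23 times with miR-144 and 15.01 ± 3.81 times with miR-451a (SD, n = 5 each). Hpgds was 0.795 ± 0.0662, 6.65 ± 0.762 and 6.66 ± 0.604 times Ptgs1 in the same order. In control TAMs both genes were below Ptgs1 in every sample, and in the miRNA groups both were above it in every sample. Ratios within a sample do not depend on scaling between samples, and each draws on the values of both genes.

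**Figure D3:**
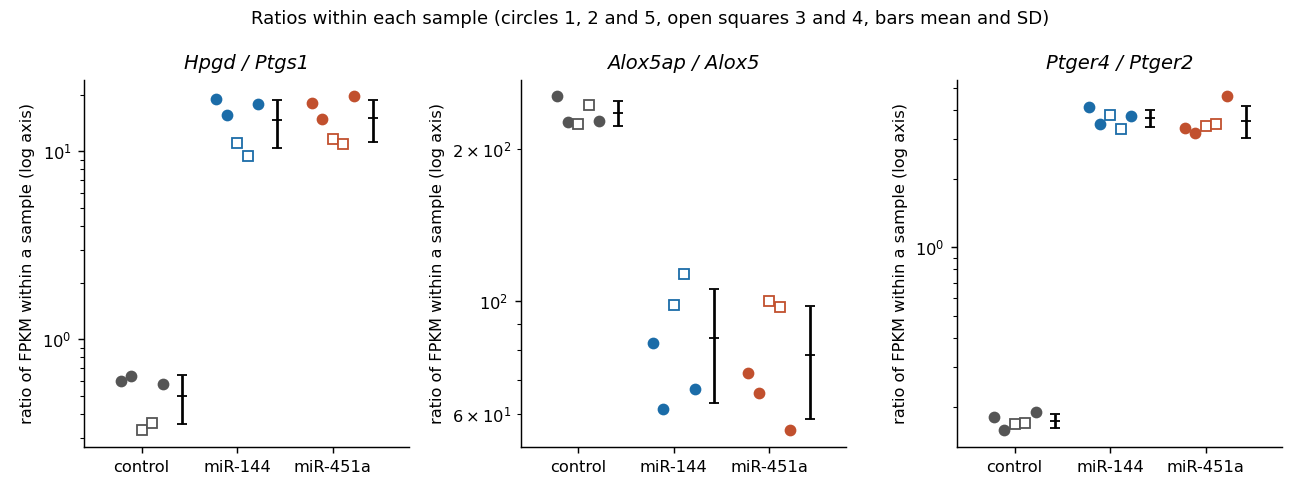
Ratio of FPKM within each sample (log axes) of Hpgd to Ptgs1, Alox5ap to Alox5 and the prostaglandin E2 receptors Ptger4 to Ptger2, by group, with mean and SD of 5 samples. The ratio of Hpgd to Ptgs1 lies between 0.328 and 0.639 in control samples and between 9.38 and 19.6 in miRNA samples.

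TAMs of the miR-144 and miR-451a groups did not differ detectably in any of the 10 genes. This comparison did not choose Hpgd, so it was tested. In limma none of the 8 members above the filter was called, none had an unadjusted p under 0.05, and every adjusted p was 0.99999. Among all 11419 genes 0 (0%) were called, while 596 had an unadjusted p under 0.05. All 10 members overlapped between these groups, where 0.849% of genes did not. Hpgd was higher with miR-451a by 0.10 on the log2(FPKM + 1) scale, with a 95% interval of -0.29 to 0.48 and an exact permutation p of 0.516 (two-sided, n = 5 each). For the 8 members the differences ranged from -0.04 to 0.10, and all 95% intervals lay within -0.29 and 0.48, which is what these samples could resolve.

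Of the 10 exact permutation tests (smallest possible p 0.00794), Ptgs2 gave the lowest p. It was lower with miR-451a than with miR-144 by 0.12 on the log2(FPKM + 1) scale (95% interval -0.23 to -0.02, exact permutation p = 0.0317, two-sided). In limma without the filter on low values, its adjusted p over all genes was 0.909, and the exact p adjusted over the 10 members was 0.317. The groups still overlapped, since miR-144 sample 1 had 0.512 FPKM and 3 of the miR-451a samples were at or above that. Hence the difference did not pass the correction for the genes tested.

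A list of 57 other genes of the pathway, in 7 role classes, was then examined to see how the steps around the 10 enzymes moved. The list was set by function with earlier results of these samples known, including that of Ptgdr2. All 57 symbols were in the table. Of these, 28 passed the filter and were tested, 6 were listed at 0 in all 15 samples, and 19 were below 0.25 FPKM in all 15. In limma adjusted over all 11419 genes, the miR-144 group had 12 higher and 11 lower, and the miR-451a group 11 higher and 10 lower. Each count of higher genes includes Fpr2, which passed the filter only through the miRNA groups, and each count of lower genes includes Ptgir, which passed it only through control, so the filter fixed both directions. With each sample centred on its median, the counts were 9 higher and 13 lower, and 9 higher and 12 lower. The called share was 82.1% and 75.0% of those tested, against 67.2% and 68.3% of all genes. Of all genes 47.1% and 48.1% were called higher and 20.1% and 20.3% lower, and the counts by role class below stand beside these shares. The median log2 difference of the 28 was 0.06 and 0.12, against 0.13 and 0.14 for all genes.

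Genes that release arachidonate or return it to membranes fell where they were called. Of 14 listed, 7 were tested, 5 fell in each comparison and none rose, except that Mboat7 was called higher and Acsl4 no longer lower after rescaling to TPM. Lpcat3, which esterifies arachidonate into phospholipids, fell from 23.4 ± 0.847 FPKM to 17.2 ± 0.384 and 17.1 ± 0.510 FPKM (SD, n = 5 each). Its log2(FPKM + 1) differences were -0.42 and -0.43 (SE 0.03, adjusted p = 1.01e-08 and 7.81e-09 in limma). The calcium-independent phospholipase Pla2g6 fell by 0.38 and 0.35 (adjusted p = 0.000673 and 0.00105), and the secreted Pla2g12a by 0.38 and 0.48 (adjusted p = 7.03e-06 and 4.67e-07) on the log2 scale. After quantile normalization the miR-451a difference of Pla2g6 was -0.53.

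Pla2g4a, the cytosolic phospholipase A2 that supplies most arachidonate for these enzymes, had 2.88 ± 0.0514 FPKM in control and 2.86 ± 0.180 and 2.76 ± 0.218 FPKM in the miRNA groups (SD, n = 5 each). It was not called (adjusted p = 0.898 and 0.378), but after median centring it was called lower in both, with differences of -0.14 and -0.19. Pla2g5, a secreted phospholipase below the filter and chosen after its values were seen, had 0.476 to 0.809 FPKM in control samples and at most 0.0245 FPKM in any miRNA sample, under its floor of 0.0842 FPKM. Because Pla2g5 was picked on these values, its adjusted p is not given as support. Mgll, the monoacylglycerol lipase, fell by 1.48 and 1.51 (SE 0.31, adjusted p = 0.000599 and 0.000488), yet control sample 5 (2.64 FPKM) lay within the range of the miRNA samples.

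Of the other prostanoid synthases, 5 of 8 were tested, and 3 rose and 1 fell with miR-144, and 2 rose and 1 fell with miR-451a. Fam213b, a prostamide and prostaglandin F synthase, rose from 8.95 ± 0.499 FPKM to 16.04 ± 2.101 and 15.1 ± 2.48 FPKM (SD, n = 5 each), differences of 0.77 and 0.68 on the log2(FPKM + 1) scale (SE 0.10, adjusted p = 5.43e-06 and 1.73e-05). Ptges2, a prostaglandin E synthase of membranes, fell from 2.73 ± 0.157 FPKM to 2.05 ± 0.224 and 1.90 ± 0.175 FPKM (SD, n = 5 each), by 0.29 and 0.36 (adjusted p = 0.000267 and 3.16e-05 in limma). After quantile normalization the miR-144 difference of Ptges2 was -0.46. Ptges3, a co-chaperone with prostaglandin E synthase activity, and the aldose reductase Akr1b3 were no longer called after median centring. Of these lost calls the sign turned for Ptges3 with miR-451a (-0.02) and for Akr1b3 with miR-144 (-0.01), and both were also lost after quantile normalization. After rescaling to TPM Akr1b3 was called higher with miR-451a too (0.15, adjusted p = 0.0199 in limma).

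Among genes of transport and further breakdown, 3 of 4 were tested. The exporter Abcc4 rose from 3.32 ± 0.203 FPKM to 4.17 ± 0.209 and 4.32 ± 0.263 FPKM (SD, n = 5 each), by 0.26 and 0.30 on the log2 scale (adjusted p = 0.000109 and 2.36e-05 in limma). After median centring the differences of Abcc4 were 0.12 and 0.16, and after quantile normalization 0.12 and 0.15. Of the reductases that act after Hpgd, Ptgr1 fell by 0.31 and 0.35 (adjusted p = 0.000301 and 0.00011), while Ptgr2 had a call of higher that was lost after median centring and quantile normalization. Slco2a1, the transporter that brings prostaglandins to Hpgd inside the cell, was below the filter, with 0.441 ± 0.0344 FPKM in control, 0.611 ± 0.0377 with miR-144 and 0.663 ± 0.133 with miR-451a (SD, n = 5 each). Without the filter its adjusted p was 0.0219 and 0.00485 in limma.

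Of the leukotriene genes, 6 of 9 were tested, and 4 rose and 1 fell in each comparison. Over all genes 47.1% and 48.1% were called higher and 20.1% and 20.3% lower, and the class was not tested as a set. Abcc1, which exports leukotriene C4, rose from 5.11 ± 0.345 FPKM to 10.4 ± 0.438 and 10.4 ± 0.435 FPKM (SD, n = 5 each), by 0.90 in both on the log2(FPKM + 1) scale (SE 0.04, adjusted p = 6.54e-11 and 6.11e-11). Cyp4f18, which inactivates leukotriene B4, rose by 0.82 and 0.89 (SE 0.09, adjusted p = 8.36e-07 and 2.97e-07). Mgst3, a microsomal glutathione transferase, rose by 0.64 and 0.63 (SE 0.07, adjusted p = 2.25e-06 and 2.49e-06). The fourth was Dpep2, of the dipeptidases that cleave leukotriene D4, while Dpep1 was not called, but was called lower with miR-144 after median centring or quantile normalization.

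Lta4h was the gene that fell. It had 13.7 ± 0.133 FPKM in control, 9.82 ± 0.270 with miR-144 and 10.2 ± 0.414 with miR-451a (SD, n = 5 each), differences of -0.44 and -0.40 (SE 0.03, adjusted p = 3.72e-09 and 1.24e-08 in limma). The enzyme of the leukotriene B4 arm was thus lower where Alox5 and Alox5ap were higher. Of 7 other lipoxygenases and epoxide hydrolases, only Ephx1 was tested, and it was called lower with miR-144 (adjusted p = 0.0120), a call lost after rescaling to TPM, and not with miR-451a (adjusted p = 0.232), where it was called lower after median centring.

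Among the prostaglandin receptors Ptgir, the receptor of prostacyclin, had 9.08 to 10.7 FPKM in control samples, 0.670 to 0.914 FPKM with miR-144 and 0.554 to 0.917 FPKM with miR-451a, without overlap. The control mean was 12.1 and 12.9 times those of the miRNA groups, and the log2(FPKM + 1) differences were -2.58 and -2.62 (SE 0.06). Ptgir passed the filter only through control, so its adjusted p is not given as support. Ptger2, the EP2 receptor of prostaglandin E2, fell from 10.3 ± 0.232 FPKM to 1.75 ± 0.207 and 1.84 ± 0.242 FPKM (SD, n = 5 each), by 2.04 and 1.99 (SE 0.06, adjusted p = 3.30e-13 and 3.98e-13 in limma).

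Ptger4, the EP4 receptor, which also raises cAMP, changed the other way. It rose from 1.78 ± 0.109 FPKM to 6.41 ± 0.249 and 6.52 ± 0.440 FPKM (SD, n = 5 each), ratios of 3.61 and 3.67, with differences of 1.42 and 1.44 (SE 0.04, adjusted p = 4.67e-13 and 3.67e-13 in limma). Within a sample Ptger4 was 0.173 ± 0.0121 times Ptger2 in control, 3.70 ± 0.316 times with miR-144 and 3.59 ± 0.571 times with miR-451a (SD, n = 5 each). The more abundant of these receptor transcripts was Ptger2 in all 5 control samples and Ptger4 in all 10 miRNA samples. Of 9 receptors, 4 were tested, 1 rose and 2 were called lower, of which Ptgir had its direction fixed by the filter, and Ptger1 was not called. The thromboxane receptor Tbxa2r was at most 0.150 FPKM in any sample, near its floor of 0.1004 FPKM, and Ptgdr, a receptor of prostaglandin D2, was listed at 0 in all 15 samples.

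Of 6 receptors for leukotrienes and related lipids, 2 were tested, and both were called higher, but Fpr2 passed the filter only through the miRNA groups, so its direction was fixed by the filter and its call is not counted as support. Cysltr1, the receptor of leukotriene D4, rose from 1.43 ± 0.0690 FPKM to 4.98 ± 0.394 and 5.11 ± 0.537 FPKM (SD, n = 5 each), by 1.30 and 1.33 (SE 0.06, adjusted p = 5.62e-11 and 4.16e-11 in limma). Cysltr2, below the filter, went the other way, with means of 0.964, 0.747 and 0.716 FPKM that overlapped in their samples. Without the filter its differences were -0.17 and -0.20 (adjusted p = 0.0376 and 0.0177 in limma). Fpr2, a formyl peptide receptor that also binds lipoxin A4, was at most 0.0323 FPKM in control samples, under its floor of 0.170 FPKM, and 1.47 to 2.92 FPKM with miR-144 and 1.13 to 2.38 FPKM with miR-451a. Ltb4r1, the high-affinity receptor of leukotriene B4, was below the filter, with 0.373 to 0.539 FPKM in control samples and at most 0.201 FPKM in miRNA samples. The means of miR-144 and miR-451a (0.108 and 0.0859 FPKM) lay under its floor of 0.138 FPKM. Without the filter the adjusted p of Ltb4r1 was 1.46e-05 and 6.87e-06 in limma, with log2(FPKM + 1) differences of -0.37 and -0.40.

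**Figure D4:**
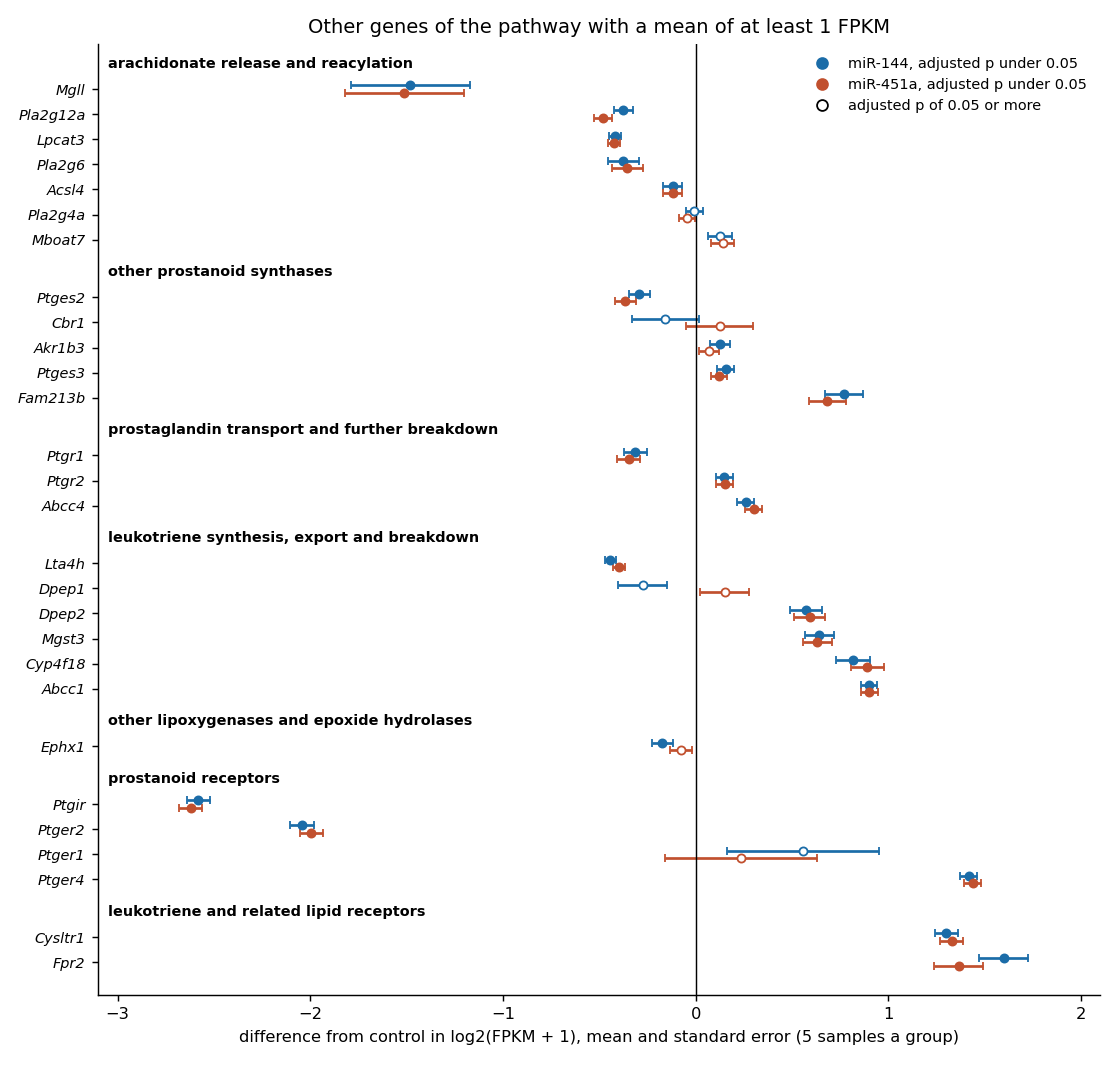
Difference from control in log2(FPKM + 1) (x axis, fitted mean and standard error) of the 28 other pathway genes that were tested, grouped by role, with filled points for an adjusted p under 0.05. Ptgir and Ptger2 lie lowest, at -2.58 and -2.04 with miR-144, and Ptger4, Cysltr1 and Fpr2 lie highest, at 1.30 or more.

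The genes whose pattern over the 15 samples was most like that of Hpgd were Ifit3, Ifit3b, Apoc2, Marcksl1 and Igfbp4, out of 11419, by the root mean square difference of log2(FPKM + 1) centred on the control mean. The distance was 0.17 for Ifit3, 0.20 for Ifit3b, 0.38 for Apoc2, 0.40 for Marcksl1 and 0.43 for Igfbp4. Ifit3 and Ifit3b are near-identical copies whose reads could be split between them. Ifit3 had 6.95 ± 1.86 FPKM in control, 94.7 ± 21.3 with miR-144 and 89.9 ± 22.8 with miR-451a (SD, n = 5 each). Nearest to Ptgs1 were Fchsd2 (0.09), Cd44 (0.11), Hebp1 (0.11), Arhgap6 (0.12) and Ttyh2 (0.13). Cd44, the hyaluronan receptor, had 50.8 ± 1.45, 22.3 ± 1.45 and 22.5 ± 1.49 FPKM in the same order.

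Markers of other cells that make these mediators were read beside the enzymes, since in bulk RNA fewer cells of a type and less RNA per cell cannot be told apart. The summed level of 8 mast cell markers was 0.0783 to 0.168 FPKM in control samples, 0.162 to 0.439 with miR-144 and 0.157 to 0.368 with miR-451a. Fcer1a, Mcpt4 and Tpsb2 were listed at 0 throughout. The 8 neutrophil markers summed to at most 1.42 FPKM in any sample. The 5 eosinophil markers summed to 2.43 to 2.98 FPKM in control and at most 1.082 FPKM in the miRNA groups, with Prg2 listed at 0. Siglecf alone carried that difference, with means of 2.26, 0.357 and 0.355 FPKM, while Ccr3 had 0.437, 0.559 and 0.480 FPKM. The 7 platelet markers summed to 11.3 to 19.6 FPKM in control, 8.15 to 14.98 with miR-144 and 8.02 to 16.9 with miR-451a. Pf4, most of that sum, had means of 12.5, 6.65 and 7.32 FPKM, whereas Treml1 had 1.62, 2.41 and 2.85 FPKM, without overlap with control, and Itga2b and Ppbp also had higher means in the miRNA groups. The 6 endothelial markers summed to 44.9 to 49.3 FPKM in control and 9.51 to 13.0 in the miRNA groups, while Pecam1 and Cdh5 stayed below 0.233 FPKM. Vwf had means of 43.5, 7.10 and 6.94 FPKM in control, miR-144 and miR-451a samples, whereas Kdr went the other way, with 2.804, 3.84 and 4.07 FPKM and no overlap with control.

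The summed level of 5 fibroblast markers was 107 to 133 FPKM in control, 143 to 211 for miR-144 and 182 to 231 for miR-451a, mostly Col1a1 and Col1a2. Both of these and Pdgfrb, with means of 2.71, 6.35 and 6.78 FPKM, lay above control in every miRNA sample. Col3a1 overlapped with control in the miR-144 group only, and Pdgfra in both miRNA groups. Macrophage markers did not all differ one way. Adgre1, which encodes F4/80, had 137 ± 4.96 FPKM in control, 361 ± 24.7 with miR-144 and 354 ± 19.6 with miR-451a (SD, n = 5 each). Cd68, a lysosomal glycoprotein of macrophages, had 1444 ± 46.2 FPKM in control, 919 ± 25.04 with miR-144 and 910.4 ± 57.4 with miR-451a (SD, n = 5 each). The 4 Kupffer cell markers summed to 3.30 to 3.75 FPKM in control and 15.7 to 49.9 in the miRNA groups, nearly all Cd5l, with Clec4f listed at 0. Vsig4 had means of 0.118, 0.376 and 0.291 FPKM and Timd4 of 0.0735, 0.392 and 0.386 FPKM in control, miR-144 and miR-451a samples. Hepatocyte markers summed to at most 0.253 FPKM, with Alb, Apoa1, Ttr, Serpina1a and Apoc3 listed at 0, and dendritic cell markers to at most 0.605 FPKM. T cell markers summed to 1.21 to 1.63 FPKM in control and 5.18 to 9.51 in the miRNA groups, of which Cd4 was nearly all and Cd3e and Cd3g were listed at 0. Of the B cell markers, Cd79b had 0.0878 to 0.328 FPKM in control samples, 1.004 to 1.39 with miR-144 and 1.15 to 1.62 with miR-451a, and Ms4a1 was at or near 0. The part of any of these marker lists in the results was not tested. Peritoneal macrophage markers summed to at most 3.44 FPKM.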

How the data were processed

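The authors sequenced RNA of sorted TAMs on an Illumina HiSeq and deposited FPKM per gene and sample. Their processing notes name FastQC 0.11.2, STAR and StringTie, and the genome build is not given in the sources used here. FPKM is divided by depth and length, so no count model was used, and counts could not be recovered from the steps between low values. Groups and sample numbers came from the labels. The members and lists were chosen with earlier results of these data known.

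limma 3.58.1 in R 4.3.3, with a mean-variance trend and the 3 groups in 1 fit, was run on log2(FPKM + 1) of 11419 genes whose mean over the 15 samples reached 1 FPKM. Its p-values were adjusted by the Benjamini-Hochberg method, and the script was tested on simulated data. A gene was called at an adjusted p under 0.05. The study's statistics section names Student's test and ANOVA for comparisons in general and no method across all genes. Named genes were the 10 members, up to 3 genes per role class with the largest difference among those called in both comparisons without overlap with control, and 9 direct partners chosen for their function. The 5 genes nearest to Hpgd and to the member with the largest fall were named too. Other genes of the list that are named (Mgll, Pla2g5, Acsl4, Mboat7, Ptges3, Akr1b3, Ptgr1, Ptgr2, Dpep1, Dpep2, Ephx1, Ptger1, Cysltr2, Ptgds and Ptgdr) were chosen after their values were seen. Coordinates are those of GENCODE M21, which holds 99.67% of the identifiers. Alternatives were other pseudocounts, filters, scalings, models and sample sets. Permutation tests and figures used Python 3.11.15, scipy 1.17.1 and matplotlib 3.10.9. The results of some marker genes are not reported here.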

Additional observations from a re-analysis of the deposited data

Results flagged for a closer look

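A single value was set apart from its group, in 30 groups of 5 values checked, where chance would give about 1.5. Alox15 had 0.0787 FPKM in miR-451a sample 1, and the gap to the next sample was 0.757 of the range of the group. The value is below the floor of 3 fragments.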

How the results depend on the processing

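The difference of Hpgd from control kept its sign and moved by less than the spread between samples under every alternative run. With each sample left out in turn it was 3.32 to 3.53 with miR-144 and 3.42 to 3.63 with miR-451a. With the sample number as a replicate block, 24 pathway genes were called with miR-144 and 21 with miR-451a, where 23 and 21 were without the block. The numbers mark no shared mouse or batch in the labels. Of the same-number correlations 8 of 15 were over 0.1 (range -0.15 to 0.26). A sample correlated best with its own number in 12 of 30 cases, each a choice among 5 samples. The mean correlation was 0.076 for the same number and -0.019 for other numbers. For other numbers both within 1, 2 and 5 or both within 3 and 4 it was 0.067. The source of this likeness was not tested. With a minimum mean of 5 FPKM, 15 pathway genes were left to test, and the calls were 13 with miR-144 (5 lower) and 11 with miR-451a (7 higher and 4 lower). Without a filter, 16 were higher and 15 lower with miR-144, and 17 higher and 14 lower with miR-451a, among 51 tested. Leaving out each sample gave 21 to 25 calls with miR-144 and 19 to 22 with miR-451a. No member was called between the miRNA groups under any alternative. Of the 14 pathway genes named by the rule, all but Ptgir and Fpr2, whose directions the filter fixed, are counted here, and these kept their calls and signs in all alternatives that tested them. Alternatives with samples 3 and 4 as a term, or with samples 1, 2 and 5 or 3 and 4 alone, were chosen after seeing the data, and each kept the sign of the 8 members. The sign of Ltc4s with miR-451a turned after rescaling to TPM and without control sample 2, control sample 5 or miR-451a sample 3 (-0.10 to 0.02 over the samples left out), and its miR-144 difference ran from -0.19 to -0.04. FPKM gives no exact depth, so small differences of genes near 3 fragments could not be seen.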
